A study of Mus musculus with 12 samples.

Results

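The genes followed here are 8 that carry the IL-6 family signal in and switch it off: the receptor chains Il6ra, Il6st, Lifr, Osmr and Lepr, the transcription factor Stat3, and the feedback inhibitors Socs3 and Socs1. They were taken by symbol from the 56748 genes of the deposited tables, each symbol matched 1 gene, and all 8 were among the 15465 genes with enough counts to be tested. The RNA came from whole liver of mice carrying pancreatic ductal adenocarcinoma, with an age of 12 weeks given for all groups. The 12 libraries form 4 groups of 3: isotype (labelled both as isotype control and as no treatment), agoCD40 (an agonistic antibody to the activating receptor CD40), antiIL1R1 (an antibody blocking the IL-1 receptor IL-1R1) and Combo (both antibodies). The labels give no strain, tumour model, dose or time of treatment, and no label ties a library to an animal of its own, so a p-value here reflects only how far these libraries vary, which may be technical.

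Cytokines of the IL-6 family bind a private receptor chain, which then recruits the shared signalling chain gp130, the product of Il6st. Janus kinases bound to the receptors phosphorylate STAT3, which enters the nucleus and, in hepatocytes, switches on the acute-phase proteins secreted into blood. SOCS3, itself induced by STAT3, binds gp130 and the kinases and damps the signal. Levels are given as CPM (counts scaled to the library total, with TMM scaling between libraries) when one gene is compared between libraries, and as TPM (which also corrects for transcript length) when genes are compared with each other.

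None of the 8 genes passed an adjusted p of 0.05 in any of the 5 pairwise comparisons, in the interaction, or in the test for any difference among the 4 groups (edgeR, adjusted over all genes). The smallest adjusted p was 0.118, for Stat3 in agoCD40 against isotype. Of all genes, 0.718% passed in that comparison, 0% in antiIL1R1 against isotype, 0.407% in Combo against isotype, 0.00647% in Combo against agoCD40, 0.175% in Combo against antiIL1R1, 0.00647% in the interaction and 0.634% for any difference among the groups. Before adjustment, 4 of the 8 were under 0.05 in agoCD40 against isotype (Stat3, Il6ra and Il6st lower, Lifr higher), where 10.2% of all genes were. The other counts before adjustment were 1 in antiIL1R1 against isotype (3.65% of all genes), 2 in Combo against isotype (11.5%), 1 in Combo against agoCD40 (6.21%), 1 in Combo against antiIL1R1 (15.3%), 2 in the interaction (7.51%) and 2 for any difference (11.2%). The median log2 difference of the 8 genes from isotype was -0.72 in agoCD40, -0.35 in antiIL1R1 and -0.58 in Combo, beside -0.02 over all genes in each, and in each comparison 7 of the 8 values were negative. These comparisons share the isotype libraries, so the values are not independent of each other. The share of negative values over all genes was not counted. Among the negative values, Socs1 in agoCD40 (-0.007) changed sign in 11 of 24 alternative settings, and Lifr in antiIL1R1 was -0.05. Without isotype 3, Lepr was 0.006 in agoCD40, 0.87 in antiIL1R1 and 0.55 in Combo. DESeq2, run as an alternative, passed 1 of the 8 in agoCD40 against isotype (Stat3), 1 in Combo against isotype (Stat3) and 1 in Combo against antiIL1R1 (Socs3). It also passed more genes in general: 399, 377 and 486 of 15450 in these comparisons. With limma on log2 TPM 0 of the 8 passed. In bulk tissue, fewer cells of a type and less RNA per cell cannot be told apart.

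**Figure D1:**
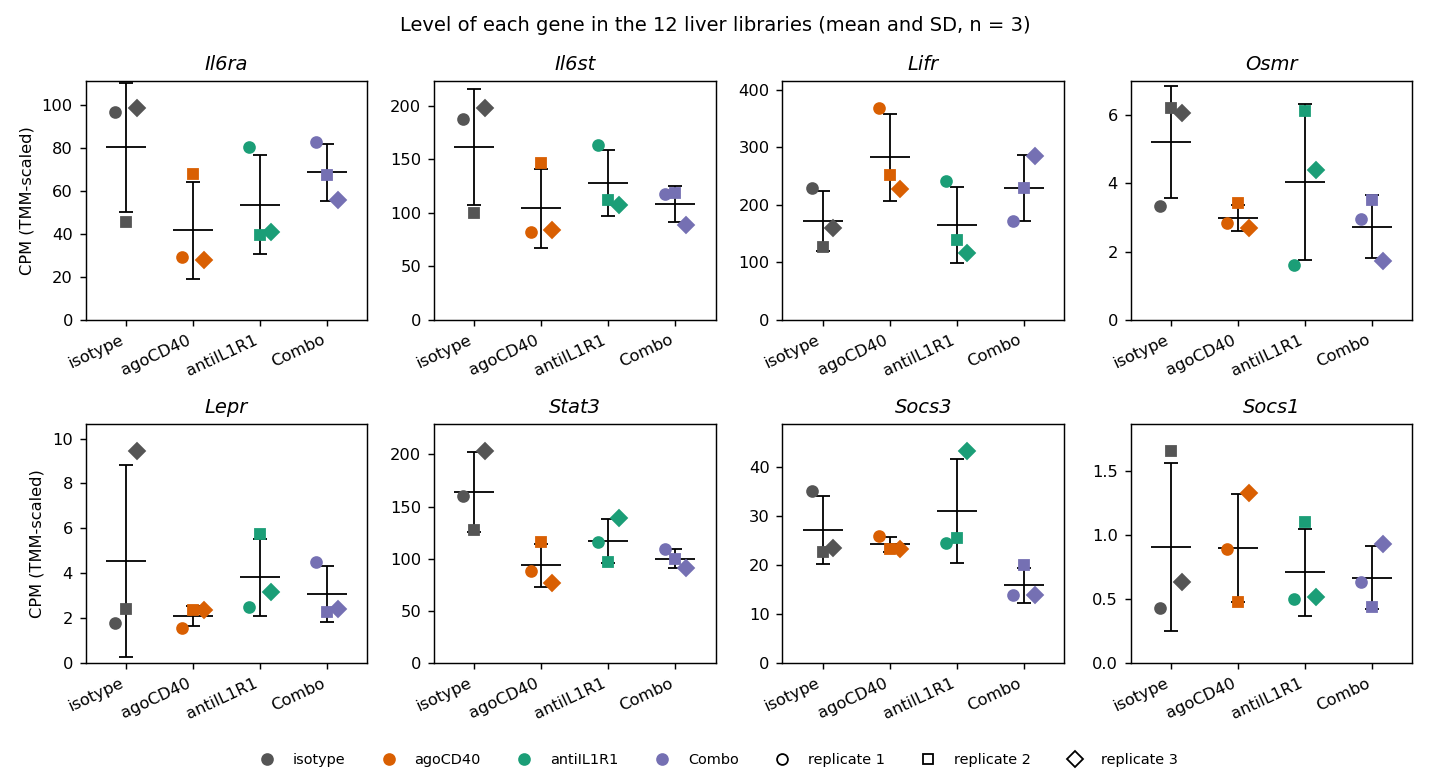
Each panel plots 1 gene, with CPM on the vertical axis and the 4 groups on the horizontal axis; points are libraries, and bars are the mean and SD of 3. Stat3 is higher in every isotype library (128 to 204) than in any agoCD40 or Combo library, and Socs3 is lowest in the Combo libraries (13.8 to 19.9).

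Across the 12 libraries the median TPM ran from Lifr (73.9) through Stat3 (33.7), Il6st (17.3), Socs3 (12.5), Il6ra (12.2), Osmr (0.790) and Lepr (0.610) to Socs1 (0.311). Neighbours in this order mostly overlapped. Socs3 was above Il6ra in only 5 of 12 libraries and Osmr above Lepr in 7, while Stat3 was above Il6st in all 12. The one gap without overlap lay between Il6ra and Osmr. The hepatocyte markers checked were all present (10 of 10 with counts in every group), as the label of liver implies. Mitochondrial transcripts took 6.23% to 14.8% of the counts, most in isotype 2 and antiIL1R1 2, and total counts ranged from 18681330 to 27118680 per library.

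Il6ra (ENSMUSG00000027947) encodes the chain that binds IL-6. It measured 96.4, 45.5 and 98.6 CPM in isotype 1, 2 and 3, 29.0, 67.6 and 27.8 in agoCD40, 80.1, 39.5 and 40.7 in antiIL1R1, and 82.5, 67.1 and 55.9 in Combo. Each single-antibody group and isotype held both high and low libraries, the groups overlapped, and only the Combo libraries lay close together. The log2 difference of agoCD40 from isotype was -0.95 ± 0.40 (SE; adjusted p = 0.422) and that of Combo was -0.23 ± 0.39 (adjusted p = 0.876). Without agoCD40 2 the first was -1.50 (adjusted p = 0.133), without isotype 2 the second was -0.51, and without the filter on low counts Il6ra passed in the first (adjusted p = 0.00689). Il6ra had the highest value of the 8 genes in the interaction, the agonist's difference with blockade minus that without it: 1.31 ± 0.56 (unadjusted p = 0.0352; adjusted p = 0.644). In a fit with the mitochondrial percent as a covariate this interaction was 0.71 ± 0.29 (adjusted p = 0.647).

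Il6st (ENSMUSG00000021756), the shared chain gp130, measured 188, 99.3 and 198 CPM in the isotype libraries, 81.9, 147 and 83.5 in agoCD40, 163, 112 and 107 in antiIL1R1, and 117, 119 and 88.5 in Combo. Isotype 2 was again the low control and agoCD40 2 the high agonist library, as for Il6ra. The log2 difference from isotype was -0.64 ± 0.29 in agoCD40 (adjusted p = 0.485) and -0.58 ± 0.29 in Combo (adjusted p = 0.476), with overlapping libraries in both. Without agoCD40 2 the difference in agoCD40 was -0.97 (adjusted p = 0.223). Over the 12 libraries log2 CPM of the 2 genes correlated (Pearson's r = 0.86, permutation p = 0.00045, adjusted p = 0.0126 over 28 pairs of the 8 genes; Spearman's rho = 0.88, adjusted p = 0.0106). Without agoCD40 1 and agoCD40 3, the libraries farthest from the median of Il6ra, r was 0.79, and with each group centred on its mean it was 0.97. Stat3 and Il6st were the other pair under an adjusted p of 0.05 by Pearson's r (0.80, permutation p = 0.00157, adjusted p = 0.022; rho = 0.74, adjusted p = 0.0732), and r was 0.65 without isotype 3 and agoCD40 3. These correlations rest on shared libraries, so anything that differs between libraries enters both genes.

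Both receptor genes also followed the mitochondrial share of the library, which is one such difference. For Il6ra the correlation with mitochondrial percent was -0.83 (permutation p = 0.00114, adjusted p = 0.00912 over the 8 genes; rho = -0.92, adjusted p = 0.00072) and for Il6st it was -0.71 (permutation p = 0.0104, adjusted p = 0.0276; rho = -0.79, adjusted p = 0.0129). It did not rest on the libraries with the largest shares. Without isotype 2 and antiIL1R1 2 the values were -0.98 and -0.89, and centred on group means they were -0.90 and -0.88. Such a relation was common in these libraries: 9.89% of the 15465 tested genes were at least as far from 0 as Il6ra, and 21.8% as far as Il6st. Socs1 had the opposite sign (r = 0.79, permutation p = 0.00274, adjusted p = 0.011; rho = 0.71, adjusted p = 0.0306), and r was 0.64 without the same libraries. Stat3 had r = -0.52 (permutation p = 0.0829, adjusted p = 0.166; rho = -0.57, adjusted p = 0.114), -0.74 without those libraries and -0.81 centred on groups. At least as far from 0 were 14.6% of the tested genes for Socs1 and 42.1% for Stat3. For Socs3, Osmr, Lifr and Lepr r lay between -0.28 and 0.34.

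**Figure D2:**
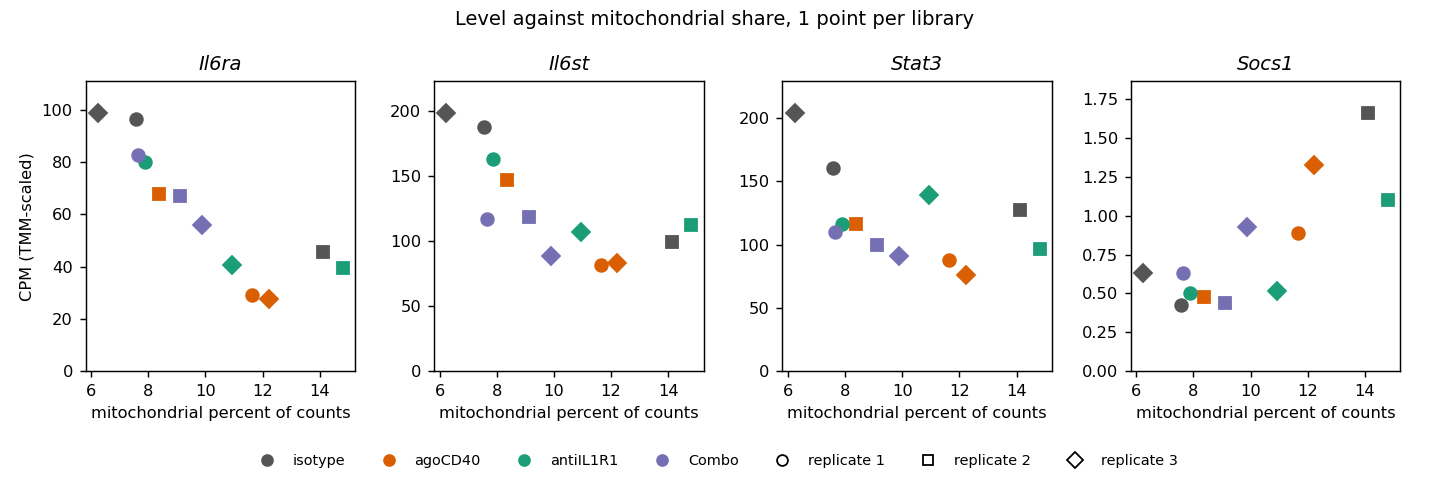
Each panel plots CPM of 1 gene (vertical axis) against the percent of counts from mitochondrial transcripts (horizontal axis), with 1 point per library, coloured by group and shaped by replicate number. Il6ra falls from 98.6 CPM in the library with 6.23% to 27.8 CPM in agoCD40 3, and the libraries of 14.1% and 14.8% sit slightly above that low end; Socs1 slopes the other way.

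Lifr (ENSMUSG00000054263) encodes the receptor chain for leukaemia inhibitory factor, which signals together with gp130. It measured 228, 126 and 160 CPM in isotype, 369, 251 and 228 in agoCD40, 241, 138 and 116 in antiIL1R1, and 171, 229 and 286 in Combo. It was the only one of the 8 with a positive difference in agoCD40 against isotype, 0.72 ± 0.31 on the log2 scale (unadjusted p = 0.0353; adjusted p = 0.434). The lowest agoCD40 library and the highest isotype library were level, so the groups met. In Combo the difference was 0.42 ± 0.31 (adjusted p = 0.651) and in antiIL1R1 -0.05 ± 0.31 (adjusted p = 0.993).

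Osmr (ENSMUSG00000022146), the oncostatin M receptor chain, was far less abundant, with 35 to 164 counts per library. Its level was 3.32, 6.23 and 6.08 CPM in isotype, 2.84, 3.43 and 2.69 in agoCD40, 1.59, 6.13 and 4.41 in antiIL1R1, and 2.95, 3.52 and 1.73 in Combo. Isotype 1 lay inside the range of the treated groups, so every comparison overlapped. The log2 difference from isotype was -0.80 ± 0.43 in agoCD40 (adjusted p = 0.603) and -0.93 ± 0.44 in Combo (adjusted p = 0.438).

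Lepr (ENSMUSG00000057722) encodes the leptin receptor, which also signals through STAT3 but without gp130. Isotype 3 held 255 counts and 9.46 CPM, whereas isotype 1 and 2 had 1.77 and 2.41 CPM. The agoCD40 libraries had 1.57, 2.36 and 2.36 CPM, the antiIL1R1 libraries 2.50, 5.76 and 3.18, and the Combo libraries 4.51, 2.28 and 2.40. A single control library thus set the isotype mean of 4.55 ± 4.27 CPM (SD). The log2 difference of agoCD40 from isotype was -1.13 ± 0.57 (adjusted p = 0.554). Without isotype 3 it was 0.006, and in the other comparisons with isotype the value without that library was 0.87 in antiIL1R1 (-0.26 with it) and 0.55 in Combo (-0.58 with it).

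The transcripts counted for Lepr also differed between libraries. Dividing a gene's count by its TPM gives the transcript length that the authors' quantification implied, and this length, relative to the library and to the gene's median, was 0.48 in isotype 3 and in antiIL1R1 1, 0.64 in isotype 1, 0.71 in agoCD40 3 and 0.98 to 1.05 in the other 8. The 2.18-fold range was wider than that of 91.9% of 11388 genes with at least 20 counts in every library, whose median range was 1.19-fold. The implied length of a gene is shorter where more of its counts are assigned to its shorter transcripts; single transcripts were not analysed here. Il6ra followed with a 1.60-fold range: it was 1.30 to 1.41 in isotype 2, agoCD40 1, agoCD40 3, antiIL1R1 2 and antiIL1R1 3, which are the 5 libraries of lowest Il6ra CPM, and 0.89 to 1.02 elsewhere. In TPM these 5 libraries stood further apart, at 3.67 to 4.90 against 10.1 to 23.2 in the other 7. The same 5 libraries also had the highest mitochondrial percents, 10.9 to 14.8 against 6.23 to 9.89 in the other 7. The part of this library-wide difference in the implied length of Il6ra was not tested. Lifr had a 1.58-fold range, from 0.81 in Combo 3 to 1.28 in isotype 2, and Stat3, Il6st, Socs3, Osmr and Socs1 ranged from 1.02-fold to 1.26-fold. With the implied length as an offset in the fit, added after these values were seen, the difference of agoCD40 from isotype was -1.81 ± 0.70 for Lepr (adjusted p = 0.428) and -1.12 ± 0.59 for Il6ra (adjusted p = 0.647).

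**Figure D3:**
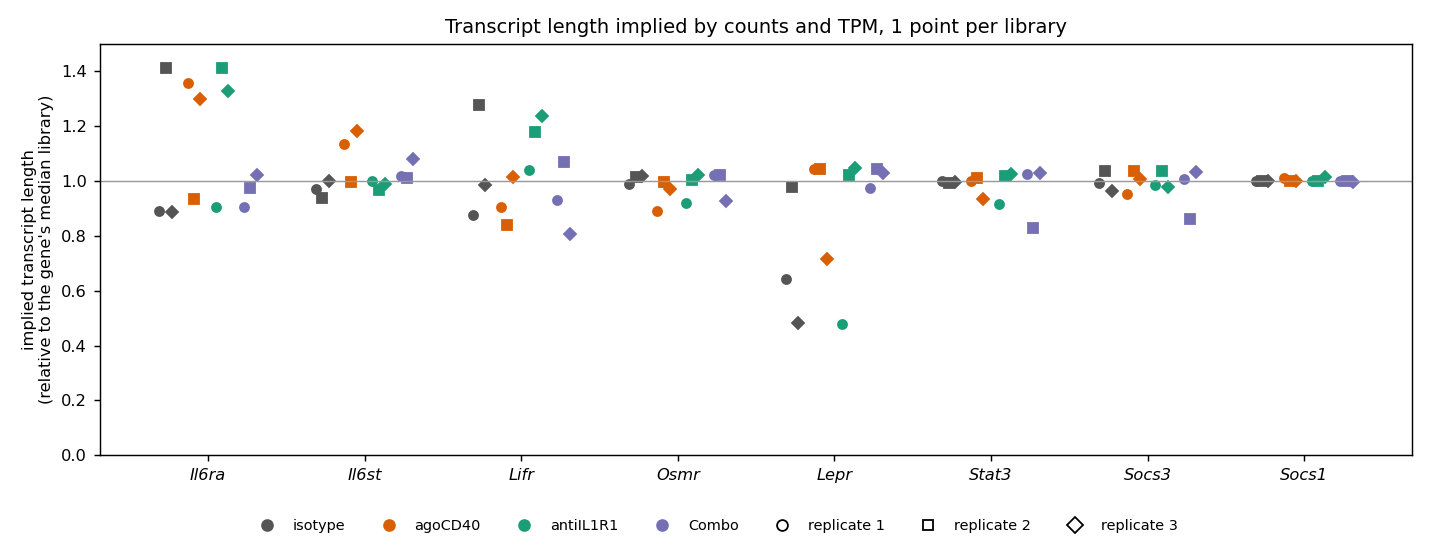
The vertical axis is the transcript length implied by count and TPM, relative to the gene's median library, for the 8 genes along the horizontal axis, with 1 point per library, coloured by group and shaped by replicate number. Lepr drops to 0.48 in isotype 3 and antiIL1R1 1, Il6ra splits into 5 libraries at 1.30 to 1.41 and 7 at 0.89 to 1.02, and Socs1 stays near 1.

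Stat3 (ENSMUSG00000004040), the transcription factor on which these receptors converge, measured 160, 128 and 204 CPM in isotype 1, 2 and 3. The agoCD40 libraries had 88.2, 116 and 76.4 CPM, the antiIL1R1 libraries 116, 96.8 and 139, and the Combo libraries 110, 99.6 and 90.9. All agoCD40 and all Combo libraries lay below the lowest isotype library, while antiIL1R1 overlapped it. Libraries that do not overlap in this direction were found for 6.84% of all genes in agoCD40 and 7.57% in Combo. The log2 difference was -0.81 ± 0.21 in agoCD40 (a ratio of 0.571; unadjusted p = 0.00201, adjusted p = 0.118) and -0.71 ± 0.21 in Combo (a ratio of 0.610; unadjusted p = 0.00476, adjusted p = 0.197). In antiIL1R1 it was -0.48 ± 0.21 (unadjusted p = 0.0380, adjusted p = 0.987). Combo and agoCD40 differed by 0.10 ± 0.21, with a 95% interval from -0.35 to 0.55.

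The Stat3 calls turned on the setting of the test. Stat3 passed in agoCD40 against isotype with DESeq2 (adjusted p = 0.0126), without the filter on low counts (0.011) and with the mitochondrial percent as a covariate (0.029, at -0.69 ± 0.14), and in Combo against isotype with the same settings (adjusted p = 0.0411, 0.0398 and 0.0237). In all other settings it missed the threshold. It did not pass when any single library was left out. The difference was negative in both comparisons under every alternative run, between -0.99 and -0.62 in agoCD40 and between -0.87 and -0.48 in Combo.

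Socs3 (ENSMUSG00000053113) encodes the feedback inhibitor that STAT3 induces. It measured 35.1, 22.7 and 23.5 CPM in isotype, 25.9, 23.3 and 23.3 in agoCD40, 24.4, 25.5 and 43.3 in antiIL1R1, and 13.8, 19.9 and 13.8 in Combo. All Combo libraries lay below all libraries of the other 3 groups, which overlapped each other. The log2 difference of Combo was -0.77 ± 0.25 from isotype (adjusted p = 0.234), -0.61 ± 0.25 from agoCD40 (adjusted p = 0.763) and -0.97 ± 0.25 from antiIL1R1 (unadjusted p = 0.00173, adjusted p = 0.131). Such a gap below the other group was seen for 7.57%, 7.07% and 9.92% of all genes in these comparisons, each taken singly. The share of genes with Combo below all other groups at once was not counted. Agonist alone differed from isotype by -0.16 ± 0.24 (adjusted p = 0.920) and blockade alone by 0.20 ± 0.24 (adjusted p = 0.987). The interaction for Socs3 was -0.81 ± 0.35 (unadjusted p = 0.0357; adjusted p = 0.644). In Combo against antiIL1R1, Socs3 passed with DESeq2 (adjusted p = 0.0131) and without the filter (0.00113).

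In the promoter windows of the 8 genes (300 bases, from 250 before to 50 after the start, RefSeq, GRCm38.p6) the STAT-type motif TTCNNNGAA, which reads the same on both strands, was found in 1 of 8 genes. It was in 1 of their 10 windows (10%), and 8.30% of all 32851 windows hold it. The gene with the motif was Socs3, and the match lies 154 bases before its start. The stretch printed here, with 25 bases on each side of the motif, is chr11:117969487-117969545 on the minus strand. The capitals mark the motif.
Socs3: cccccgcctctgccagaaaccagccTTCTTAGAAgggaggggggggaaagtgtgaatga
A match describes these letters only and is not a measured binding site.

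Socs1 (ENSMUSG00000038037), the related inhibitor better known from interferon signalling, was near the limit of measurement, with 8 to 36 counts per library. Its level was 0.429, 1.66 and 0.631 CPM in isotype, 0.891, 0.479 and 1.33 in agoCD40, 0.501, 1.10 and 0.516 in antiIL1R1, and 0.632, 0.440 and 0.927 in Combo. The groups overlapped throughout. The difference of agoCD40 from isotype had a 95% interval from -1.34 to 1.32 on the log2 scale, which does not exclude a change of 1 log2 unit in either direction. The sign was not stable: over 24 alternatives this value ran from -0.40 without agoCD40 3 to 0.74 without isotype 2, alone or together with antiIL1R1 2, and changed sign in 11. Combo against antiIL1R1 changed sign in 8, between -0.40 without Combo 3 and 0.49 with the mitochondrial percent as a covariate. Total-count scaling alone gave 0.09 and 0.08.

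**Figure D4:**
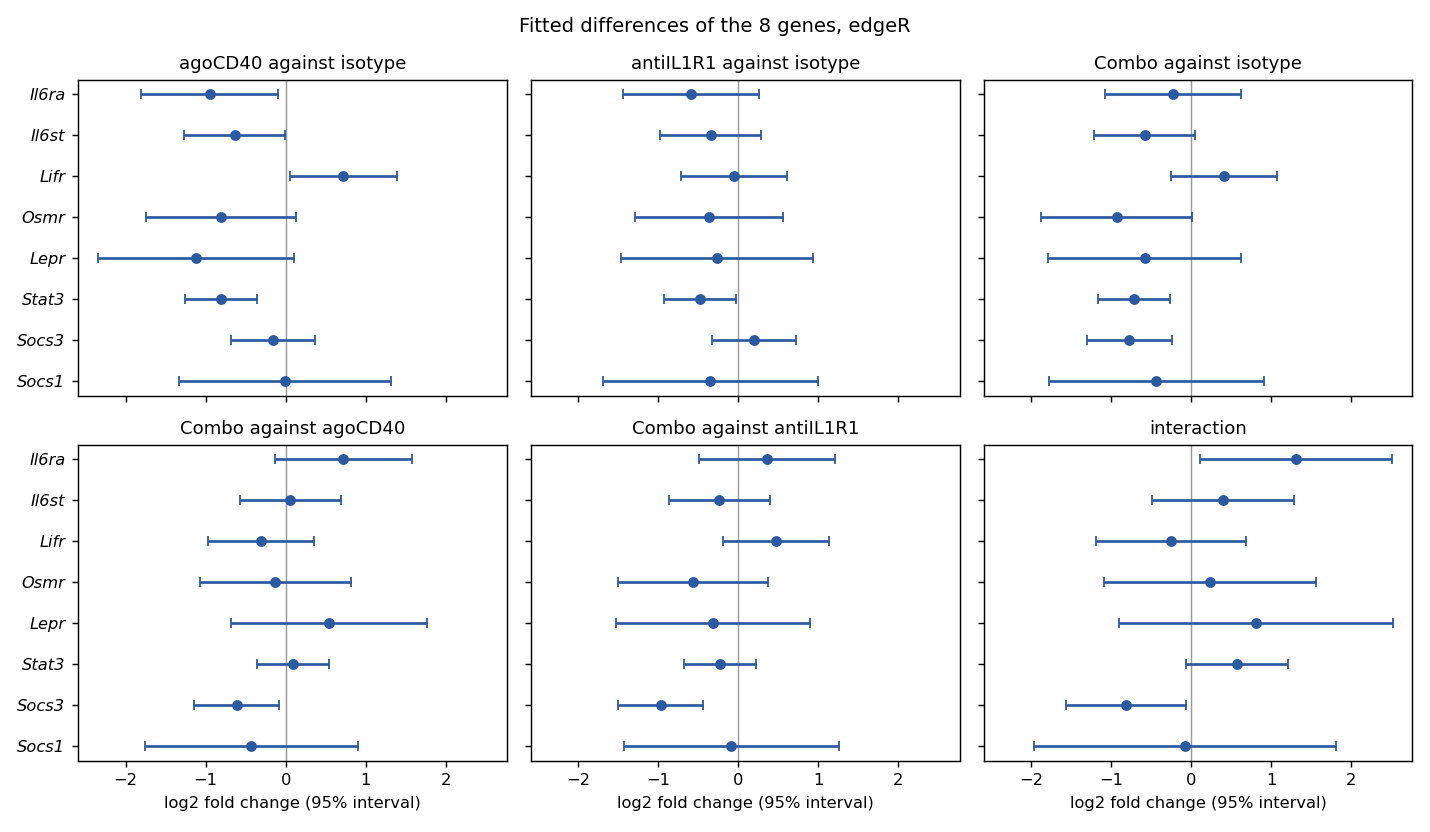
Each panel is 1 comparison, with the fitted log2 fold change of the 8 genes on the horizontal axis and bars for the 95% interval of the edgeR fit. Stat3 lies left of 0 in all 3 comparisons with isotype, Socs3 lies left of 0 wherever Combo is compared, and Lifr is the one gene on the right in agoCD40 against isotype.

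The other genes of the pathway were taken as 4 lists. Of 13 ligands (with leptin) 5 had enough counts to be tested, of 5 other receptors 4, and the 10 Janus kinases and other STATs and the 17 other negative regulators were all tested. None of these 36 genes passed in any comparison with edgeR. Il6 itself had 5, 2 and 53 counts in isotype, 0, 0 and 3 in agoCD40, 11, 0 and 19 in antiIL1R1, and 0, 1 and 0 in Combo (any difference among the groups: unadjusted p = 0.0169, adjusted p = 0.304). Isotype 3 thus gave most of the control signal for Il6, as it did for Lepr. Csf3r, the receptor for granulocyte colony-stimulating factor, measured 5.63, 7.99 and 10.9 CPM in isotype and 1.64 to 5.48 CPM in the 9 treated libraries, all below the controls (adjusted p = 0.364 over the 4 groups). Libraries below all controls were found for 6.84%, 3.33% and 7.57% of all genes in agoCD40, antiIL1R1 and Combo, each taken singly. The share of genes with all 9 treated libraries below was not counted. Csf3r is a receptor of neutrophils, and the summed level of 9 neutrophil markers was 13.2 to 34.2 CPM in isotype (Camp at 0), 42.2 to 75.3 in agoCD40, 2.29 to 6.67 in antiIL1R1 (Ngp and Mpo at 0) and 28.7 to 65.1 in Combo; the part of these cells in the Csf3r values was not tested. The ligands Ctf1, Clcf1 and Ebi3 had adjusted p from 0.579 to 0.769 for any difference, and the receptors Cntfr, Il11ra1 and Il27ra from 0.620 to 0.877.

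Among the negative regulators, Socs2, an inhibitor of growth hormone signalling, measured 10.2, 12.2 and 10.4 CPM in Combo against 22.1, 31.0 and 30.8 in isotype (log2 -1.36 ± 0.36; adjusted p = 0.161). One agoCD40 library, at 8.48 CPM, was lower still, so the pattern was not confined to Combo. Ptpn2, a phosphatase of Janus kinases and STATs, measured 5.14, 6.25 and 6.20 CPM in Combo and 10.8, 10.4 and 9.61 in isotype (log2 -0.81 ± 0.21; adjusted p = 0.145). Cish, a SOCS family member induced by STAT5, went the other way in antiIL1R1, with 16.5, 13.5 and 20.7 CPM against 7.56, 6.28 and 8.49 in isotype (log2 1.18 ± 0.31; unadjusted p = 0.00236, adjusted p = 0.987). The libraries did not overlap with isotype for Socs2 and Ptpn2 in Combo or for Cish in antiIL1R1 (gaps of this direction were found for 7.57% of all genes in Combo and 3.10% in antiIL1R1), yet none passed. Ptprc, the leukocyte phosphatase CD45, had an adjusted p of 0.330 for any difference. Jak3, Stat2, Stat5b and Stat6 had the smallest p of the kinases and STATs, with adjusted p from 0.428 to 0.749 for any difference among the groups. The Stat2 level in Combo was 24.2 to 27.9 CPM, below the isotype range of 33.2 to 56.4, one of the same 7.57% of genes (log2 -0.71 ± 0.26; adjusted p = 0.317).

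Genes that STAT3 is known to induce in liver or leukocytes were the one list with genes past the threshold. Of 45 tested, 4 fell in agoCD40 against isotype (0.446% of all genes fell there), 5 fell in Combo against isotype (0.155% of all genes) and none rose. The list was chosen with earlier results of these data known, so its direction is not independent evidence. Its median log2 difference was -0.70 in agoCD40, -0.43 in antiIL1R1 and -0.72 in Combo, with 38, 37 and 38 of the 45 values negative. In antiIL1R1 0 passed with edgeR, in a comparison where 0% of all genes did. The Combo libraries differed from agoCD40 by a median of -0.10, with 0 past the threshold.

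In agoCD40, Cebpd, a transcription factor of the acute-phase response, measured 6.96, 8.40 and 8.73 CPM against 25.6, 37.0 and 26.7 in isotype, and fell by 1.89 ± 0.26 on the log2 scale (adjusted p = 0.0063). In Combo Cebpd was at 22.4, 26.6 and 15.9 CPM, beside 14.1, 19.1 and 27.1 in antiIL1R1, and its interaction of 2.00 ± 0.36 had an adjusted p of 0.123. Tnfrsf1b, the second receptor for tumour necrosis factor, measured 18.9, 30.0 and 22.9 CPM in agoCD40 against 43.6, 50.1 and 81.1 in isotype (log2 -1.28 ± 0.26; adjusted p = 0.0407), and 59.8, 83.2 and 56.1 in Combo. The antiIL1R1 libraries of Tnfrsf1b, at 37.4, 30.5 and 26.4 CPM, were also all below isotype, as were those of 3.33% of all genes. The log2 difference was -0.89 ± 0.26 (adjusted p = 0.987, and 0.0233 without the filter on low counts). That filter-free fit passed 63 of 27704 genes in this comparison, where the main fit passed 0. The interaction for Tnfrsf1b was 2.36 ± 0.36 (adjusted p = 0.104). In agoCD40 against isotype Cebpd passed in 23 of 24 alternatives and Tnfrsf1b in 8. Whether the interactions passed turned on the setting. The interaction of Cebpd passed with DESeq2 (adjusted p = 0.000534) and without the filter (4.95e-06), and so did that of Tnfrsf1b (2.22e-06 and 2.93e-09), which also passed without isotype 1 (0.0393). Combo against agoCD40 was 1.43 ± 0.26 for Cebpd (adjusted p = 0.128) and 1.47 ± 0.26 for Tnfrsf1b (adjusted p = 0.125); both passed with DESeq2 and without the filter, and Tnfrsf1b also without isotype 3 (0.0424). The other 2 were Itih4 and Itih3, plasma proteins of the inter-alpha-inhibitor family made by hepatocytes, at -1.14 ± 0.20 (adjusted p = 0.0201) and -1.34 ± 0.28 (adjusted p = 0.0463).

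In Combo the genes that fell were secreted hepatocyte proteins. Fgb and Fgg, the beta and gamma chains of fibrinogen, fell by 1.05 ± 0.16 and 0.96 ± 0.17 (adjusted p = 0.0203 and 0.0358). Fgl1, a fibrinogen-like protein, measured 167, 121 and 177 CPM against 563, 1286 and 754 in isotype, and fell by 2.48 ± 0.42 (adjusted p = 0.0258). Apcs, serum amyloid P, measured 55.4, 55.4 and 57.2 CPM against 114, 223 and 201 (log2 -1.68 ± 0.33; adjusted p = 0.0498), and Itih4 fell by 1.12 ± 0.20 (adjusted p = 0.0359). In antiIL1R1 the same genes had values between -0.56 and -0.38, none past the threshold.

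**Figure D5:**
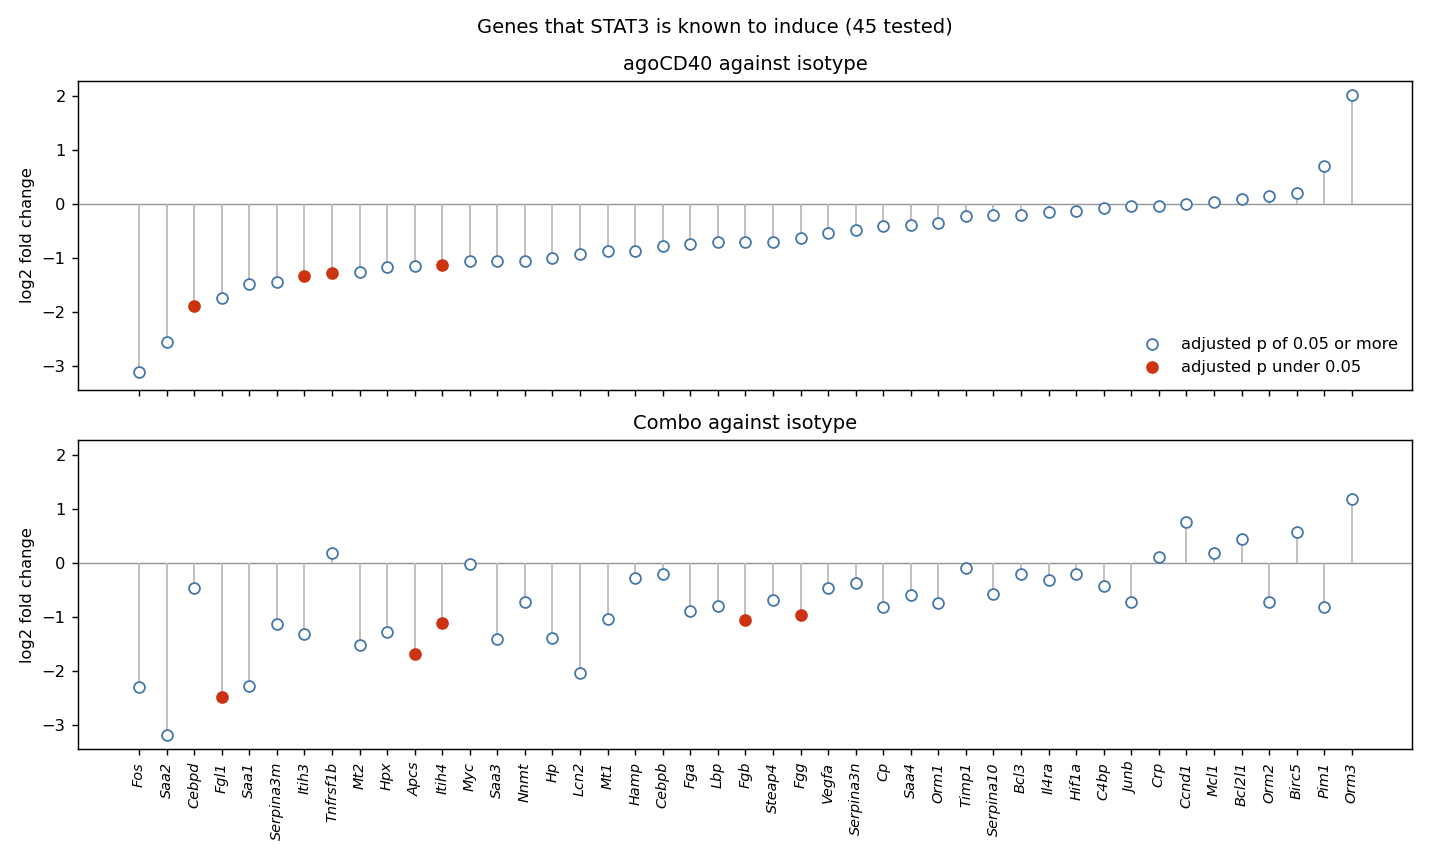
The 45 tested genes that STAT3 is known to induce are ordered along the horizontal axis by their log2 fold change in agoCD40 against isotype, with that comparison above and Combo against isotype below (vertical axes); filled points passed an adjusted p of 0.05. Most points lie below 0 in both panels (38 of 45 in each), and of the 8 genes with a filled point Itih4 alone has one in both.

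These counts moved with the setting and with single libraries. In agoCD40 against isotype between 1 and 6 genes of the list fell when each library was left out in turn, and Cebpd was among them in all 12 of these fits, Itih4 in 8, Tnfrsf1b in 4 and Itih3 in 2. In Combo against isotype 0 fell without Combo 1, without Combo 2 or without Combo 3, and up to 7 without antiIL1R1 1. Without isotype 3 the counts were 1 and 2. With DESeq2 16 and 15 genes of the list fell, where 214 and 158 of 15450 genes fell. With the replicate number as a block 1 and 0 did, where 47 and 7 of 15465 genes fell. Markers of other cells moved in the same comparisons. Of 10 Kupffer-cell markers 4 fell in agoCD40 and 4 in Combo against isotype (0.446% and 0.155% of all genes fell), with summed levels of 388 to 647 CPM in isotype, 209 to 289 in agoCD40, 274 to 381 in antiIL1R1 and 286 to 382 in Combo. Of 7 B-cell and plasma-cell markers 4 and 3 rose (0.272% and 0.252% of all genes rose), from a summed 10.5 to 15.3 CPM in isotype to 65.7 to 172 in agoCD40 and 91.1 to 120 in Combo. The summed hepatocyte markers were 83666 to 105966 CPM in isotype, 67802 to 84817 in agoCD40, 93270 to 104648 in antiIL1R1 and 69091 to 73599 in Combo, and 1 of 10 fell in agoCD40 and 0 in Combo. The part of these cells in the values of Stat3 and of the genes it induces was not tested. Of 7 exocrine pancreas markers 6 were at 0 in 3 groups and 5 in Combo.

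The same motif was searched in the promoters of the STAT3-induced list. Of its 35 genes with a RefSeq window, 7 hold TTCNNNGAA and 3 the stricter form TTCCNGGAA. Counted by window, 7 of 40 hold the first (17.5%, against 8.30% of all windows). The stricter form is in 3 of 40 (7.5%, against 1.15%). The list was made of genes that STAT3 is known to induce. Shares of the motif among its genes are thus not independent of that choice and are no result of these data. Of the 8 genes that fell, 6 have a window. Of these 6, 1 holds the stricter form and 4 hold TTCNNNGAA (8.30% of all windows do), while Itih3 and Fgg hold neither. These 4 are shown because they are among the genes past the threshold, and the capitals mark the motif. It lies 51, 181, 162 and 244 bases before the start of Itih4, Tnfrsf1b, Fgb and Apcs. The printed stretches, which include bases beside the motif, are chr14:30886400-30886458 (Itih4, plus strand), chr4:145247018-145247076 (Tnfrsf1b, minus strand), chr3:83049992-83050050 (Fgb, minus strand) and chr1:172895265-172895304 (Apcs, minus strand). The Tnfrsf1b match is the stricter form.
Itih4: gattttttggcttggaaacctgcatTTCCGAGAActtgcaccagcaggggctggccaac
Tnfrsf1b: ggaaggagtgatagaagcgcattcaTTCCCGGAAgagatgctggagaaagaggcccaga
Fgb: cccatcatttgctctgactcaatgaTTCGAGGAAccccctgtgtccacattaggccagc
Apcs: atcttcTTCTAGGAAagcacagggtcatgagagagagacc
Windows without these letters say nothing of the factor, and all coordinates are of GRCm38.p6 and not of the build of the count tables.

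The genes whose levels were most like each of the 8 were read from log2 CPM over the 12 libraries, among 11801 or 11802 candidates. Stat3 was most like Itih3 (r = 0.96), Itih4 (0.95) and C4b (0.95), the first of which belong to the STAT3-induced list and the last to the complement system. Il6ra was most like Akap13 (0.96), Ppp4r1 (0.96) and Tbc1d2b (0.96), and Il6st most like Marf1 (0.94), Klb (0.92) and Mug2 (0.92). Lifr was most like Ugt2b1 (0.92), C1ra (0.89) and Cyld (0.89), and Socs3 most like Klhl7 (0.92), Mrps22 (0.89) and Sqle (0.83). For the sparse genes the nearest were Crybb3 (0.89), Prtn3 (0.88) and Mustn1 (0.87) for Osmr, Eps8 (0.90), Arpc1b (0.88) and Zfp618 (0.87) for Lepr, and Snhg6 (0.91), Usf1 (0.90) and Rps15-ps2 (0.87) for Socs1. These are the highest of many correlations over libraries that share depth and mitochondrial share, and are given as a description.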

How the data were processed

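Poly(A)-selected RNA of whole liver was measured in 12 libraries. The authors deposited estimated counts per gene, made from the reads by their own quantification and not scaled between libraries, per the file headers and values. The authors also deposited TPM of the same libraries. The submitters' processing notes name Trim Galore 0.6.7, STAR, RSEM 1.3.1, StringTie 2.2.1 and GRCm39 without their roles, and the names of the deposited tables point to merged salmon output; no source used here says which of them made the counts. The tables hold no coordinates.

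Counts were rounded and analysed in R 4.3.3 with edgeR 4.0.16: filterByExpr (minimum count 10) left 15465 genes, TMM scaled the libraries, and 1 model of 4 group means over all 12 libraries (8 residual degrees of freedom) gave quasi-likelihood F tests. The Benjamini-Hochberg adjustment ran over the 15465 genes, and 0.05 was the threshold. Errors on fold changes are standard errors derived from that test. Correlations used log2 CPM with a prior count of 2 and 100000 permutations.

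The 8 genes and the gene lists were chosen with earlier results of these data known. Named beside the 8 genes are all list genes past the threshold in any comparison and otherwise up to 4 per list with the smallest p for any difference, and the 3 tested genes with the highest Pearson's r to each of the 8 (mean of at least 1 CPM, predicted genes left out). The lists hold 92 genes. Promoter windows came from RefSeq (GRCm38.p6); Cebpd and Fgl1 are not among them. Alternatives were RLE and total-count scaling, DESeq2 1.42.0, no filter, the replicate number as a block, limma 3.58.1 on log2(TPM + 1) and log2(TPM + 0.1), only the groups compared, the mitochondrial percent as a covariate, leaving out isotype 2 with antiIL1R1 2, leaving out each library, and, chosen after seeing the data, the implied length as an offset. The steps were tested on simulated counts with 100 genes changed 2-fold and 100 changed 4-fold. In agoCD40 against isotype edgeR recovered 40 and 81 of these, with 14 false calls. DESeq2 recovered 55 and 92, with 43 false calls. In Combo against isotype edgeR recovered 27 and 80, and in the interaction 8 and 51. The changed genes were drawn from those with a mean of at least 1 CPM, in a single simulation per comparison. In these simulations edgeR thus missed a 2-fold change more often than it found one. Socs1 lies below that level, and recovery for single genes was not measured.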

Additional observations from a re-analysis of the deposited data

How the results depend on the processing

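The number of the 8 genes past the threshold was 0 in each comparison and stayed 0 under RLE and total-count scaling, the replicate block, limma, the groups compared alone, the implied length, and without isotype 2 and antiIL1R1 2 together. Leaving out each library gave 0 in all comparisons (lowest and highest 0). DESeq2 gave 1 (agoCD40 against isotype), 1 (Combo against isotype), 1 (Combo against antiIL1R1) and 2 (any difference: Stat3, Socs3). Without a filter on low counts the counts were 3 (Stat3, Il6ra, Lifr), 2 (Stat3, Socs3), 1 (Socs3), 1 (interaction: Il6ra) and 4 (any difference). With the mitochondrial percent they were 1, 1 and 1 (agoCD40 and Combo against isotype, any difference: Stat3). Over all genes, DESeq2 passed 399, 377, 486 and 729 in the comparisons named for it. The fit with the mitochondrial percent passed 256, 292 and 310 in those named for it. The filter-free fit tests 27704 genes; why it passes more was not tested. Of 1144 values of the 8 genes under the alternatives, 67 changed sign and none of these was called in either fit; 12 changed their call.

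Over all genes, 111 passed in agoCD40 against isotype (28 to 466 under the alternatives), 0 in antiIL1R1 (0 to 63), 63 in Combo against isotype (9 to 466), 1 in Combo against agoCD40 (0 to 197), 27 in Combo against antiIL1R1 (4 to 742), 1 in the interaction (0 to 232) and 98 for any difference (31 to 1006). Each highest value came without a filter. Leaving out agoCD40 3 gave 28 and 31 in the first and last, leaving out Combo 1 gave 12 in Combo against isotype, and leaving out antiIL1R1 3 gave 4 in Combo against antiIL1R1. Total-count scaling moved the median of all genes in Combo against isotype from -0.02 to 0.11 and its split from 39 higher and 24 lower to 52 and 10. Libraries of the same replicate number were mostly not alike (18 same-number pairs, median correlation of deviations -0.03, from -0.39 to 0.41, 2 above 0.1). Pairs of different number were not set beside them, so whether the numbers pair some libraries was not settled. The replicate block gave 72 and 23 genes in agoCD40 and Combo against isotype, 9 in Combo against antiIL1R1 and 39 for any difference. Socs1, Osmr and Lepr have the fewest counts, down to 8, 35 and 33 in a library.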

Other observations

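Lifr and Il6st encode the 2 chains of the same receptor complex, and their count ratio within a library does not depend on the scaling between libraries. The ratio of Lifr to Il6st counts was 1.22, 1.27 and 0.805 in isotype, 1.47, 1.23 and 1.09 in antiIL1R1, 4.51, 1.71 and 2.73 in agoCD40, and 1.46, 1.93 and 3.23 in Combo. All 3 agoCD40 libraries lay above all isotype and antiIL1R1 libraries, and Combo 1 lay inside the antiIL1R1 range. In TPM the ratio was 2.88, 1.99 and 1.74 in isotype, 3.02, 2.16 and 1.85 in antiIL1R1, 12.1, 4.33 and 6.79 in agoCD40, and 3.41, 3.88 and 9.19 in Combo, with every Combo and agoCD40 library above every other library. The ratio was chosen after the values were seen and was not tested. The share of gene pairs that separate in this way was not counted. In agoCD40 against isotype Lifr was higher (log2 0.72) and Il6st lower (log2 -0.64), so the higher ratio in agoCD40 restates these differences. The TPM ratio also carries the implied lengths, which for Lifr ran from 0.81 in Combo 3 to 1.28 in isotype 2. The part of these lengths in the TPM separation was not tested. The ligands Il31 and Lep had 0 counts in all 12 libraries.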
